A study of Mus musculus with 32 samples.

Results

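The Slco genes encode the organic anion transporting polypeptides, membrane carriers that move bile acids, steroid conjugates, thyroid hormones, prostaglandins and many drugs into cells without sodium. The mouse kidney transcripts of 7 of them are described here, namely Slco1a1, Slco1a6, Slco2a1, Slco2b1, Slco3a1, Slco4a1 and Slco4c1, out of 54532 genes in the count table. The genes were grouped by family name, with earlier results of these data known. Slco1a1 was selected on a measured value, its fall in male mice at Day 5, so that fall is described without a test. Each of the 7 genes had enough counts to be kept by the expression filter over all libraries, and 10 other Slco genes with a row in the table are given at the end.

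Kidney tissue was collected from wild type C57BL/6 mice aged 6 to 8 weeks, an inbred laboratory strain, before and after a single intraperitoneal injection of cisplatin at 20 mg/kg, a platinum drug that injures kidney tubules. The 8 groups of 4 mice combined both sexes with Day 0, 2, 3 and 5 following injection, with 1 sequencing library per mouse. The sample labels list cisplatin for the Day 0 females and no agent for the Day 0 males, whereas the study describes Day 0 animals as healthy, which was followed here. The RNA came from whole kidney tissue, so fewer cells of a type and less RNA per cell cannot be told apart in any value below.

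The libraries held between 16502107 and 35961325 counts, and no pair of the 32 held the same counts. Several libraries stood apart. Xist, a transcript of the inactive X chromosome of female cells, reached 4153 counts in male Day 5 mouse 1, against its label. The other Day 5 males held 260, 89 and 59 counts, male Day 0 mouse 4 held 242, and the Day 2 and Day 3 males held at most 5. Y-linked genes held 447 to 545 counts in male Day 5 mice 2 to 4 and 0 in the Day 5 females. Male Day 5 mouse 1 held 387 of them, which went with its label. The same library gave 42.5% of its counts to mitochondrially encoded transcripts, a share that was 78.9%, 79.8% and 79.7% in the other male Day 5 mice, and 77.9% in female Day 5 mouse 2 against 9.30% to 31.6% in the other Day 5 females. The Day 0 mice numbered 4 held 24.0% (male) and 19.7% (female), while no other library before Day 5 was above 14.0%. Female Day 0 mouse 2 held 253608 counts of Alb, the liver's albumin gene, and between 5 and 221 counts of Y-linked genes were read in the Day 0 females against 0 in every later female library. The 17 marker genes of the proximal tubule, the nephron segment that reabsorbs most filtrate and carries most organic anion transporters, summed to between 13823 and 23499 CPM (counts scaled to a common library size) at Day 0, between 1407 and 9630 in Day 5 males and between 5858 and 14416 in Day 5 females. All CPM values here are normalised by the TMM method, which corrects for a few very abundant transcripts in a library. Adrenal cortex markers (7 genes) summed to between 4.84 and 250 CPM in Day 0 females, 22.8 and 1780 in Day 3 females and 441 and 1117 in Day 5 females. In males they summed to between 4.21 and 17.2 CPM at Day 0 and 28.7 and 132 at Day 5, and to 399 in Day 2 mouse 2. Adipocyte markers summed to 1662 CPM in male Day 0 mouse 4, against 315 to 402 in the other Day 0 males. The part of these transcripts in the Slco values was not tested.

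In the mouse kidney Slco1a1 and Slco1a6 belong to a subfamily of proximal tubule carriers of steroid conjugates and other organic anions, and Slco1a1 is known for its dependence on androgens. Slco2a1 encodes the prostaglandin transporter, and Slco2b1 a carrier of steroid sulfates and drugs. Slco3a1 and Slco4a1 are broadly expressed carriers of prostaglandins and thyroid hormones, and Slco4c1 encodes a kidney carrier of digoxin, thyroid hormone and uremic compounds on the blood side of the proximal tubule.

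All 7 genes are protein coding. In the coordinates of the deposited files, which match the mouse build GRCm38, Slco1a1 (ENSMUSG00000041698) lies on chromosome 6 from 141907282 to 141946962 and Slco1a6 (ENSMUSG00000079262) on the same minus strand from 142085761 to 142208521, within a cluster of related genes. Slco4c1 (ENSMUSG00000040693) lies on chromosome 1 from 96816270 to 96872171, Slco4a1 (ENSMUSG00000038963) on chromosome 2 from 180456245 to 180474867, and Slco2a1 (ENSMUSG00000032548) on chromosome 9 from 102988712 to 103096002. Slco3a1 (ENSMUSG00000025790) and Slco2b1 (ENSMUSG00000030737) lie on chromosome 7, from 74275419 to 74554780 and from 99657804 to 99711340. Sequence shared between relatives could move reads between genes: of all stretches of 75 bases in its transcripts, Slco1a1 shared 1.08% with another Slco gene (Slco1a4) and Slco1a6 shared 2.23% (with Gm6614), and the other 5 genes shared none. Exons of Slco2b1 also overlap the antisense gene Gm15635 by 471 bases, and whether the counting used strand is not given in the sources used here.

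The promoters of Slco1a1 and Slco4c1 are shown because both genes were higher in males (below) and lie far apart in the genome. RefSeq windows on GRCm38.p6 were found for 6 of the 7 genes, Slco3a1 being the exception. The windows below are the 250 bases before the start site, 5′ to 3′ on the minus strand, from chr6:141946963-141947212 for Slco1a1 and chr1:96872172-96872421 for Slco4c1. Capitals mark a match, on either strand, to AGAACA, the half-site of the androgen and glucocorticoid receptors.
Slco1a1: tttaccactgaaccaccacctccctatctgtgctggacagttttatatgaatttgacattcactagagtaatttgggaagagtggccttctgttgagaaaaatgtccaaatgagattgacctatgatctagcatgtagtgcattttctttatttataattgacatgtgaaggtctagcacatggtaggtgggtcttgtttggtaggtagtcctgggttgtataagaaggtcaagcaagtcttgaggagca
Slco4c1: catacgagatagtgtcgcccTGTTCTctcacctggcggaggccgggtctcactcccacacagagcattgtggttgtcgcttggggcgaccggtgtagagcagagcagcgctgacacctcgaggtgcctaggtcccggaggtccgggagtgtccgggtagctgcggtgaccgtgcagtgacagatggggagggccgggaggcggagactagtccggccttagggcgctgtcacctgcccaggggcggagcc
The Slco4c1 window held 1 match, read as its reverse complement and starting 230 bases before the start site, and the Slco1a1 window held none. The motif was present in 16.1% of all 32851 promoter windows of this length. Neither window held TTCNNNGAA, the STAT site (7.02% of all windows), or GTTAAT, the HNF1 half-site (6.43%). Among the members not shown, a window of Slco2b1 held AGAACA and TTCNNNGAA, starting 96 and 133 bases before the start site. Slco2b1 did not pass as higher in males on any day. The windows of Slco1a6, Slco2a1 and Slco4a1 held no match to any of these motifs. All of these are matches of letters only.

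Levels were compared between genes with the deposited FPKM, which divide by gene length. In Day 0 males, Slco1a1 (63.1 ± 20.4 FPKM, mean ± SD, n = 4) and Slco1a6 (55.3 ± 14.9) stood at the top with overlapping ranges, followed without overlap by Slco3a1 (22.6 ± 7.26). Slco4a1 (3.94 ± 0.744), Slco4c1 (3.21 ± 2.06), Slco2b1 (2.69 ± 0.949) and Slco2a1 (1.59 ± 0.272) followed, each overlapping its neighbour. In Day 0 females, Slco1a6 (45.8 ± 27.6 FPKM) stood alone at the top, and the other 6 genes lay between 0.921 FPKM for Slco4c1 and 5.77 FPKM for Slco4a1, each range overlapping the next. In Day 5 males the order had turned, with Slco4a1 first (27.3 ± 12.9 FPKM), Slco1a6 second (13.5 ± 15.9, overlapping) and Slco1a1 last (0.471 ± 0.432). In Day 5 females Slco1a6 (25.8 ± 7.14 FPKM) remained first, Slco4a1 (8.26 ± 6.56) second, and Slco1a1 was listed at 0 in all 4 libraries. CPM per kb gave the same order in every group.

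**Figure D1:**
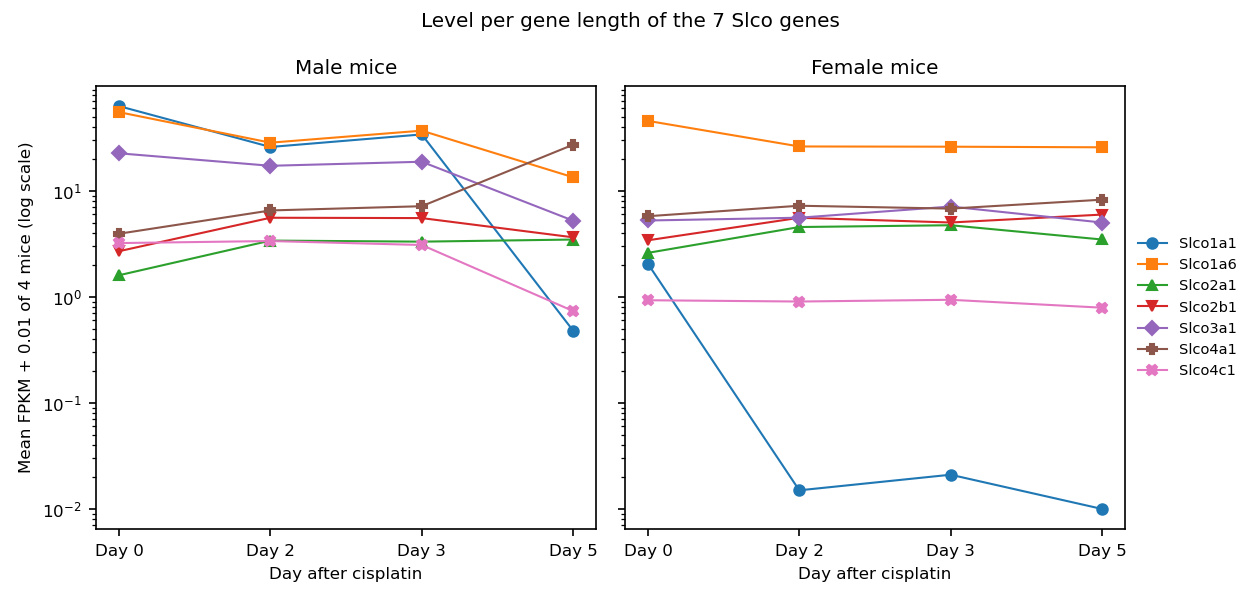
Mean FPKM of the 7 Slco genes (log scale, 0.01 added) at Day 0, 2, 3 and 5 in males (left) and females (right), each point the mean of 4 mice. Slco1a1 falls from 63.1 to 0.471 FPKM in males between Day 0 and Day 5 while Slco4a1 goes from 3.94 to 27.3 FPKM, and Slco1a6 is the highest of the genes in females on every day.

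The study asked how the kidney transcriptome changed over the days following cisplatin and how males differed from females, so each day was set against Day 0 within a sex, and males against females on each day. A gene passed at an adjusted p under 0.05 and counted as a differentially expressed gene (DEG) when its absolute log2 fold change was also over 1.5, the thresholds of the study. Adjusted p values come from the quasi-likelihood test of edgeR, adjusted by Benjamini-Hochberg over all genes tested. The counts below leave out Slco1a1, since each comparison with the Day 0 males shares libraries in which it was selected. In males at Day 2, 1 of the other 6 Slco genes passed and none was a DEG, while 3.16% of all genes tested passed and 0.716% were DEGs (4 of these 6 genes and 29% of all genes had an unadjusted p under 0.05, and DESeq2 called no Slco DEG). In males at Day 3, 3 of 6 passed and none was a DEG by edgeR or DESeq2, while 24.5% of all genes passed and 3.72% were DEGs. An unadjusted p under 0.05 was found for 4 of the 6 and for 40.5% of all genes. In males at Day 5, the comparison in which Slco1a1 was selected, 3 of 6 passed and 2 were DEGs, beside 19.2% and 7.53% of all genes, and nothing is read from that count.

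In females fewer Slco genes passed, although the difference between the sexes needs the test of its own given further on. At Day 2, 0 of 6 passed by edgeR (1.93% of all genes passed and 1.41% were DEGs), 1 of 6 had an unadjusted p under 0.05 (25.3% of all genes) and DESeq2 called 0 Slco DEGs. At Day 3, 1 of 6 passed and none was a DEG by edgeR or DESeq2 (5.54% of all genes passed and 2.48% were DEGs), with 1 of 6 at an unadjusted p under 0.05 (30.7% of all genes). At Day 5, 0 of 6 passed by edgeR against 0.258% and 0.228% of all genes, 2 of 6 had an unadjusted p under 0.05 (15.7% of all genes) and DESeq2 called 0 Slco DEGs. The expression filter left Slco1a1 out of these fits, as mouse 3 of the Day 0 females held 0 counts and no later female held more than 7.

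Between the sexes Slco1a1 is also left out because the females had almost no counts of it after injection and it entered those fits only through the males. At Day 0, 1 of 6 genes passed, and it was a DEG higher in males, against 0.449% of all genes that passed and 0.175% that were DEGs higher in males. At Day 2, 2 of 6 passed and both were DEGs higher in males (1.47% and 0.506% of all genes). At Day 3, 3 of 6 passed and 1 was a DEG higher in males (21.3% and 0.894%). At Day 5, 0 of 6 passed by edgeR (0.276% of all genes passed and 0.236% were DEGs), 2 of 6 had an unadjusted p under 0.05 (20.3% of all genes) and DESeq2 called 1 DEG. For the difference between the sexes in the response, tested as an interaction, 0 of 6 passed at Day 2 (0% of all genes passed and 0% were DEGs), 0 of 6 at Day 3 (0.0114% and 0.0114%) and 1 of 6 at Day 5, which was a DEG (0.243% and 0.231%). An unadjusted interaction p under 0.05 was found for 0 of 6 at Day 2 (4.23% of all genes) and for 2 of 6 at Day 3 (7.11%), and DESeq2 called 0 of these 6 as DEGs on either day.

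**Figure D2:**
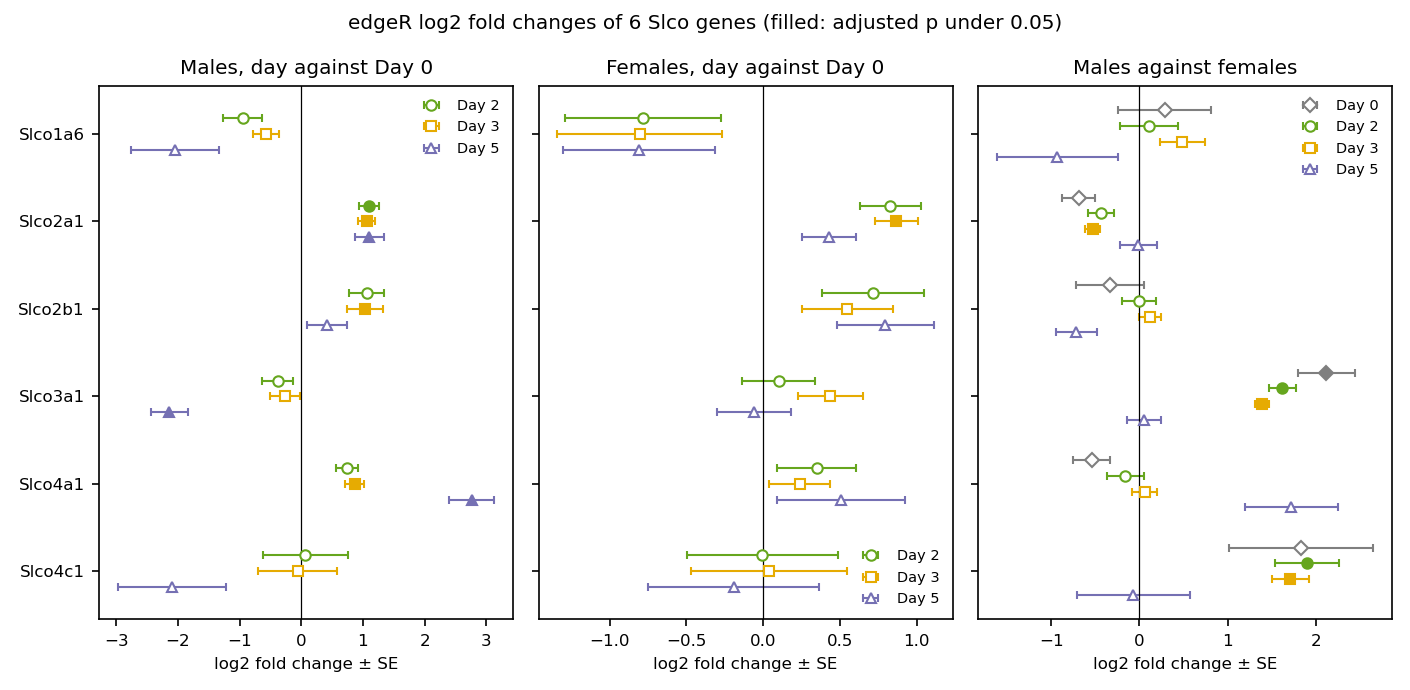
Log2 fold change ± SE from edgeR of the 6 Slco genes other than Slco1a1, for each day against Day 0 in males (left) and females (middle) and for males against females (right, with Day 0), from 4 mice a group. Filled symbols mark adjusted p under 0.05: Slco2a1 is filled on all 3 days in males, and Slco3a1 on Day 0, 2 and 3 between the sexes.

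Slco1a1, the organic anion carrier of the proximal tubule that was selected on its fall, was among the most abundant of the 7 genes in Day 0 males and close to absent at Day 5. The Day 0 males held 451, 385, 342 and 185 CPM, the Day 2 males 181, 118, 209 and 48.4 CPM and the Day 3 males 131, 228, 182 and 198 CPM. Only the Day 0 male of lowest level, mouse 4, overlapped the range of the later days. At Day 5 the males held 2.01, 0.591, 1.44 and 5.43 CPM, from 36, 4, 9 and 39 counts, and each of these lay far under every earlier male.

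The mean in males went from 341 ± 113 CPM at Day 0 to 2.37 ± 2.12 CPM at Day 5 (mean ± SD, n = 4), a ratio of 144, and this ratio stayed between 115 and 253 when any 1 of the 8 mice was left out, the highest being without male Day 5 mouse 4. Without male Day 5 mouse 1, whose Xist went against its label, it was 137. The log2 fold change from Day 0 was -1.28 (SE 0.43) at Day 2 and -0.88 (SE 0.28) at Day 3, values given without a test because they share the Day 0 males with the fall that was selected on.

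In females Slco1a1 was low before injection and close to 0 afterwards. The Day 0 females held 31.4, 7.89, 0 and 4.78 CPM, from 967, 287, 0 and 177 counts. The same 4 libraries held 221, 5, 44 and 66 counts of Y-linked genes, and the second held 1189 counts of the liver carrier Slco1b2. The part of these other transcripts in the Day 0 levels was not tested. After injection the females held 1, 2, 1 and 0 counts at Day 2, 0, 7, 1 and 2 counts at Day 3, and 0 counts in all 4 libraries at Day 5, where 3 counts per library would be 0.174 CPM on average.

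With the counts of a group pooled over its summed library sizes, the female level was 392 times lower at Day 2 than at Day 0 (95% counting interval 153 to 1442, from 1431 and 4 counts) and 189 times lower at Day 3 (102 to 394, from 10 counts). Without female Day 0 mouse 1, which gave 967 of the 1431 counts, these ratios were 169 (65.6 to 623) and 81.3 (43.8 to 171), an alternative added after seeing the data. Without female Day 3 mouse 2, which gave 7 of the 10 counts of its group and held 11849 counts of Alb, the Day 3 ratio was 458 (156 to 2223). At Day 5, with no count, the Day 0 mean was at least 63.2-fold above the mean value of 3 counts per library, at least 24.2-fold without female Day 0 mouse 1 and at least 97.8-fold without female Day 5 mouse 2. These intervals cover counting error only. Over the mice themselves the ranges met, as 1 Day 0 female was also at 0, and no test is given.

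Between the sexes every male held more Slco1a1 than every female on each day. These values are described without a test. Those of Day 0 and Day 5 use the libraries in which the gene was selected, and at Day 2 and Day 3 the females had so few counts that only the high male level let the gene enter the fit. At Day 0 the pooled male level was 29.9 times the female level (counting interval 28.4 to 31.6), and 69.5 times (63.4 to 76.3) without female Day 0 mouse 1. At Day 2 the pooled ratio was 4780 (1867 to 17546, 16334 counts in males against 4 in females), and at Day 3 it was 3055 (1661 to 6373, 18893 against 10 counts). Without female Day 2 mouse 2 the first was 6543, and without female Day 3 mouse 2, which held 7 of the 10 counts, the second was 7415. At Day 5 the males were still at least 13.6-fold higher, with a bound of 7.72 without male Day 5 mouse 4 and of 21.0 without female Day 5 mouse 2.

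**Figure D3:**
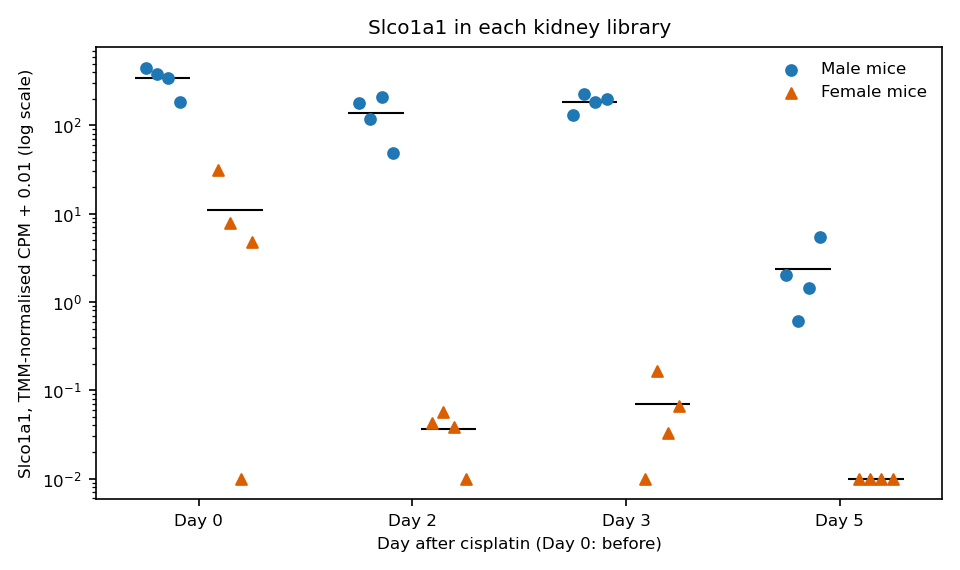
Slco1a1 in each of the 32 libraries, as TMM-normalised CPM with 0.01 added on a log scale, by day, with males as circles, females as triangles and the mean of 4 mice as a bar. The males lie between 48.4 and 451 CPM up to Day 3 and between 0.591 and 5.43 CPM at Day 5, and the females lie under the males on every day.

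Slco3a1, the carrier of prostaglandins and thyroxine, was higher in males than in females up to Day 3. The Day 0 males held 230, 244, 207 and 104 CPM and the Day 0 females 62.9, 42.8, 42.9 and 30.5 CPM. At Day 2 the males held 152, 144, 176 and 125 CPM against 50.3, 43.9, 45.7 and 53.2 CPM in females, and at Day 3 they held 154, 185, 154 and 163 CPM against 62.1, 62.7, 63.7 and 56.8 CPM. On these 3 days every male was above every female. At Day 5 the males held 49.1, 43.7, 30.8 and 46.8 CPM and the females 53.4, 38.2, 38.6 and 41.6 CPM, so that the groups overlapped.

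Slco3a1 was 4.34-fold higher in males at Day 0 (log2 2.12, SE 0.33, adjusted p = 0.0330), 3.07-fold at Day 2 (log2 1.62, SE 0.15, adjusted p = 0.000448) and 2.62-fold at Day 3 (log2 1.39, SE 0.08, adjusted p = 1.01e-05). At Day 5 the log2 fold change was 0.05 (SE 0.19, adjusted p = 0.908). Within males it fell by 2.14 on the log2 scale from Day 0 to Day 5 (SE 0.30, 4.40-fold lower, adjusted p = 0.00555), after changes of -0.38 (SE 0.26) at Day 2 and -0.26 (SE 0.24) at Day 3 that did not pass. In females the log2 fold changes against Day 0 were 0.10 (SE 0.24), 0.44 (SE 0.21) and -0.06 (SE 0.24) and none passed.

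The response of Slco3a1 at Day 5 differed between the sexes in the interaction test (log2 -2.09, SE 0.38, adjusted p = 0.0330), and it did so on the same side without male Day 5 mouse 1 (-2.16, adjusted p = 0.00497) and with that mouse and female Day 5 mouse 2 both left out (-2.20, adjusted p = 0.00443). Leaving out 1 of 10 of the other 15 mice lifted the adjusted p over the threshold, up to 0.0968, with log2 values between -2.31 and -1.95 over all 16. The Day 0 difference between the sexes passed only without male mouse 4, the Day 0 male of lowest level, and reached an adjusted p of 0.151 when another mouse was left out. The fall in males and the Day 2 and Day 3 differences between the sexes passed when any 1 mouse was left out.

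Slco4c1, the basolateral carrier of the proximal tubule, was low in CPM and higher in males at Day 2 and Day 3. The males held 17.5, 25.0, 20.4 and 1.32 CPM at Day 0, 21.8, 18.7, 20.7 and 5.70 at Day 2 and 10.4, 18.2, 13.1 and 20.4 at Day 3. The females held 4.35, 4.10, 8.50 and 1.03 CPM at Day 0, 3.92, 4.29, 5.09 and 4.62 at Day 2 and 5.44, 3.91, 4.26 and 4.97 at Day 3. Mouse 4 of Day 0, a library with a raised mitochondrial share, was the lowest of its group in both sexes and made the Day 0 groups overlap, whereas those of Day 2 and Day 3 did not.

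Slco4c1 was 3.73-fold higher in males at Day 2 (log2 1.90, SE 0.36, adjusted p = 0.0316) and 3.28-fold at Day 3 (log2 1.71, SE 0.21, adjusted p = 0.00113), while the Day 0 difference of similar size did not pass (1.83, SE 0.82, adjusted p = 0.625). The Day 2 call was lost when any 1 mouse other than male mouse 4 was left out (adjusted p up to 0.110), and both calls were lost in 1 fit over all 8 groups (adjusted p = 0.224 and 0.233). An edgeR fit with a term for the replicate number also lost the Day 2 call (adjusted p = 0.0759). Of the 17 proximal tubule markers, 2 passed as higher in males at Day 2 and 9 at Day 3, and none as lower (0.891% and 10.6% of all genes passed as higher), with medians of 0.29 and 0.59 on the log2 scale beside -0.02 for all genes on both days. At Day 3 they summed to 13591 to 19310 CPM in males and 7496 to 14877 CPM in females, and their part in the Day 2 and Day 3 values of Slco3a1 and Slco4c1 was not tested. At Day 5 the males held 8.10, 3.99, 1.28 and 0.557 CPM against 3.79, 2.28, 6.10 and 3.39 CPM in females, with overlap. Within males the Day 5 change of -2.09 (SE 0.88) did not pass (adjusted p = 0.118), but passed with all mice in DESeq2 (0.0401) and in 1 fit over all 8 groups (0.0138), and without male Day 0 mouse 4 (-2.47, adjusted p = 0.0315).

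Slco2a1, the prostaglandin transporter, rose in males on all 3 days and in females at Day 3. The Day 0 males held 24.9, 26.2, 17.1 and 20.2 CPM, the Day 2 males 47.2, 44.4, 43.7 and 52.4, the Day 3 males 47.7, 43.0, 46.0 and 47.6 and the Day 5 males 43.6, 40.1, 63.6 and 33.1 CPM. Every male after injection was above every male before it. The rises were 2.14-fold at Day 2 (log2 1.10, SE 0.16, adjusted p = 0.0241), 2.08-fold at Day 3 (log2 1.06, SE 0.14, adjusted p = 0.00511) and 2.15-fold at Day 5 (log2 1.10, SE 0.24, adjusted p = 0.0162). Of 12 endothelial markers, 2 passed as higher and none as lower in males at Day 2 and again at Day 3 (1.81% of all genes at Day 2 and 11.4% at Day 3 passed as higher), with medians of 0.53 and 0.48 on the log2 scale, and their part in the Slco2a1 values was not tested. In females at Day 3, when Slco2a1 also passed, none of the 12 passed as higher and 2 as lower (1.26% and 4.28% of all genes).

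The Day 0 females held 38.0, 35.6, 34.4 and 33.3 CPM of Slco2a1, the Day 2 females 78.5, 53.0, 55.6 and 65.0, the Day 3 females 72.3, 56.5, 69.9 and 62.2 and the Day 5 females 53.4, 38.7, 47.7 and 50.2 CPM, again with no overlap with Day 0. The rise was 1.83-fold at Day 3 (log2 0.87, SE 0.14, adjusted p = 0.0465), and the values at Day 2 (0.83, SE 0.20, adjusted p = 0.0531) and Day 5 (0.43, SE 0.18, adjusted p = 0.281) did not pass. The Day 2 value passed in DESeq2 (0.00346), in 1 fit over all 8 groups (0.00176) and without female Day 0 mouse 4 (0.0156). Females were above males at Day 0 and Day 2 without overlap, which did not pass (log2 -0.69 and -0.43, although the Day 0 value passed in DESeq2 with 0.0217 and in 1 fit with 0.0172), and 1.45-fold above them at Day 3 (log2 of males against females -0.53, SE 0.09, adjusted p = 0.00344, but 0.178 in 1 fit over all 8 groups). The Day 3 and Day 5 calls in males passed when any 1 mouse was left out. The Day 2 call passed only without male Day 0 mouse 3 or 4 (adjusted p up to 0.104), and that of females at Day 3 only without female Day 0 mouse 4 or Day 3 mouse 2 (up to 0.168). In edgeR fits with a term for the replicate number, the calls were lost in males at Day 2 and Day 3 and in females at Day 3 (adjusted p = 0.0868, 0.0517 and 0.137).

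Slco2b1, a carrier of steroid sulfates, rose in males at Day 3. The Day 0 males held 19.1, 17.4, 7.87 and 21.6 CPM and the Day 3 males 44.3, 30.5, 32.4 and 28.3 CPM, without overlap, a 2.06-fold rise (log2 1.04, SE 0.29, adjusted p = 0.0356). The Day 2 males were as high at 32.9, 32.6, 28.4 and 42.1 CPM, but that change did not pass (1.06, SE 0.28, adjusted p = 0.0662, against 0.00732 in DESeq2 and 0.0163 in 1 fit over all 8 groups), and the Day 5 males overlapped Day 0 with 23.6, 14.2, 28.3 and 17.3 CPM. Mouse 3 was the lowest of the Day 0 males, as it was of the Day 0 females (21.9, 27.0, 8.99 and 24.3 CPM). With 1 mouse left out, both the Day 2 and the Day 3 change passed only without male Day 0 mouse 3 or 4 (adjusted p down to 0.0156 at Day 2, and up to 0.0992 at Day 3 otherwise). The Day 3 call was also lost in an edgeR fit with a term for the replicate number (adjusted p = 0.0689).

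The females held between 28.1 and 48.3 CPM of Slco2b1 at Day 2, between 29.3 and 32.2 at Day 3 and between 30.3 and 42.3 at Day 5, above every Day 0 female, with log2 fold changes of 0.72 (SE 0.33), 0.55 (SE 0.30) and 0.80 (SE 0.32) that did not pass. At Day 5 every female was above every male, and this difference did not pass either (-0.72, SE 0.23, adjusted p = 0.158).

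Slco4a1, a carrier of thyroid hormone that is present in many tissues, had the largest rise of the 6 genes tested in males. The Day 0 males held 14.4, 22.9, 19.5 and 20.4 CPM, the Day 2 males 30.8, 33.0, 26.6 and 37.9, the Day 3 males 31.8, 39.2, 34.9 and 35.3 and the Day 5 males 59.3, 161, 95.5 and 183 CPM. Every Day 5 male was above every earlier male, and the lowest of them was mouse 1, the library whose Xist went against its label. The rise was 6.80-fold at Day 5 (log2 2.77, SE 0.36, adjusted p = 0.00477) and 1.82-fold at Day 3 (log2 0.87, SE 0.15, adjusted p = 0.0104), and the value at Day 2 did not pass (0.74, SE 0.18, adjusted p = 0.0556, but 0.00535 in DESeq2, 0.0461 with at least 10 counts in every library, and under the threshold without male Day 0 mouse 3 or 4, down to 0.0353). Without mouse 1 the Day 5 rise was 3.01 on the log2 scale (adjusted p = 0.000426), and the Day 3 and Day 5 calls passed when any 1 mouse was left out. The Day 3 call was lost in 1 fit over all 8 groups (adjusted p = 0.0596) and in an edgeR fit with a term for the replicate number (0.0547).

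In females Slco4a1 held between 22.9 and 34.3 CPM at Day 0, between 25.6 and 46.8 at Day 2 and between 24.3 and 40.0 at Day 3, with overlap. At Day 5 the females held 25.0, 83.1, 22.0 and 26.5 CPM, where the value of 83.1 belonged to mouse 2, the library with 77.9% mitochondrial counts. The log2 fold change against Day 0 was 0.51 (SE 0.42, adjusted p = 0.564) and turned to -0.19 without that mouse. Males against females at Day 5 gave 1.72 (SE 0.53, adjusted p = 0.155), and the interaction 2.26 (SE 0.57, adjusted p = 0.0981). Neither passed with all mice in the edgeR fits of single comparisons that ignored the replicate numbers, whereas DESeq2 gave adjusted p of 0.0130 and 0.0122 and 1 edgeR fit over all 8 groups 0.00378 and 0.00501. Without male Day 5 mouse 1 the values were 2.02 (adjusted p = 0.0223) and 2.50 (adjusted p = 0.00986), without female Day 5 mouse 2 they were 2.44 (0.0301) and 2.94 (0.0141), and without both, a choice made after seeing the data, they were 2.68 (adjusted p = 1.99e-05) and 3.17 (0.000202).

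Slco1a6, the close relative of Slco1a1, passed with all mice in no edgeR fit of a single comparison that ignored the replicate numbers. The Day 0 males held 220, 236, 266 and 137 CPM and the Day 0 females 218, 171, 274 and 34.1 CPM, with mouse 4 the lowest in both. Later values lay between 55.0 and 142 CPM in males at Day 2, between 123 and 165 in males at Day 3, and between 66.9 and 166 in females at Day 2 to Day 5. The Day 5 males held 139, 35.8, 15.3 and 10.6 CPM, so mouse 1 held the level of earlier days and the other 3 were under every other library except female Day 0 mouse 4, which lay just under the highest of them.

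Slco1a6 changed by -2.05 (SE 0.71) on the log2 scale in males at Day 5 and did not pass (adjusted p = 0.0711). With all mice it passed at Day 5 in DESeq2 (0.0108) and in 1 fit over all 8 groups (0.00675), and the Day 2 and Day 3 values in males, -0.95 and -0.57, passed in DESeq2 (adjusted p = 0.0255 and 0.0317). Without mouse 1, whose Xist went against its label, it fell by 3.30 (adjusted p = 0.00155). Males against females at Day 5 gave -0.93 (SE 0.69, adjusted p = 0.467), and -2.16 without that mouse (adjusted p = 0.00420). In females the log2 values were -0.78 (SE 0.51), -0.80 (SE 0.54) and -0.81 (SE 0.49) at Day 2, Day 3 and Day 5 (adjusted p = 0.352, 0.325 and 0.441). Without female Day 0 mouse 4 they were -1.12, -1.14 and -1.15 and each passed (adjusted p = 0.0207, 0.0186 and 0.0231), as did the male values without male Day 0 mouse 4 at Day 2 (-1.11, adjusted p = 0.0466) and Day 3 (-0.74, adjusted p = 0.00973).

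**Figure D4:**
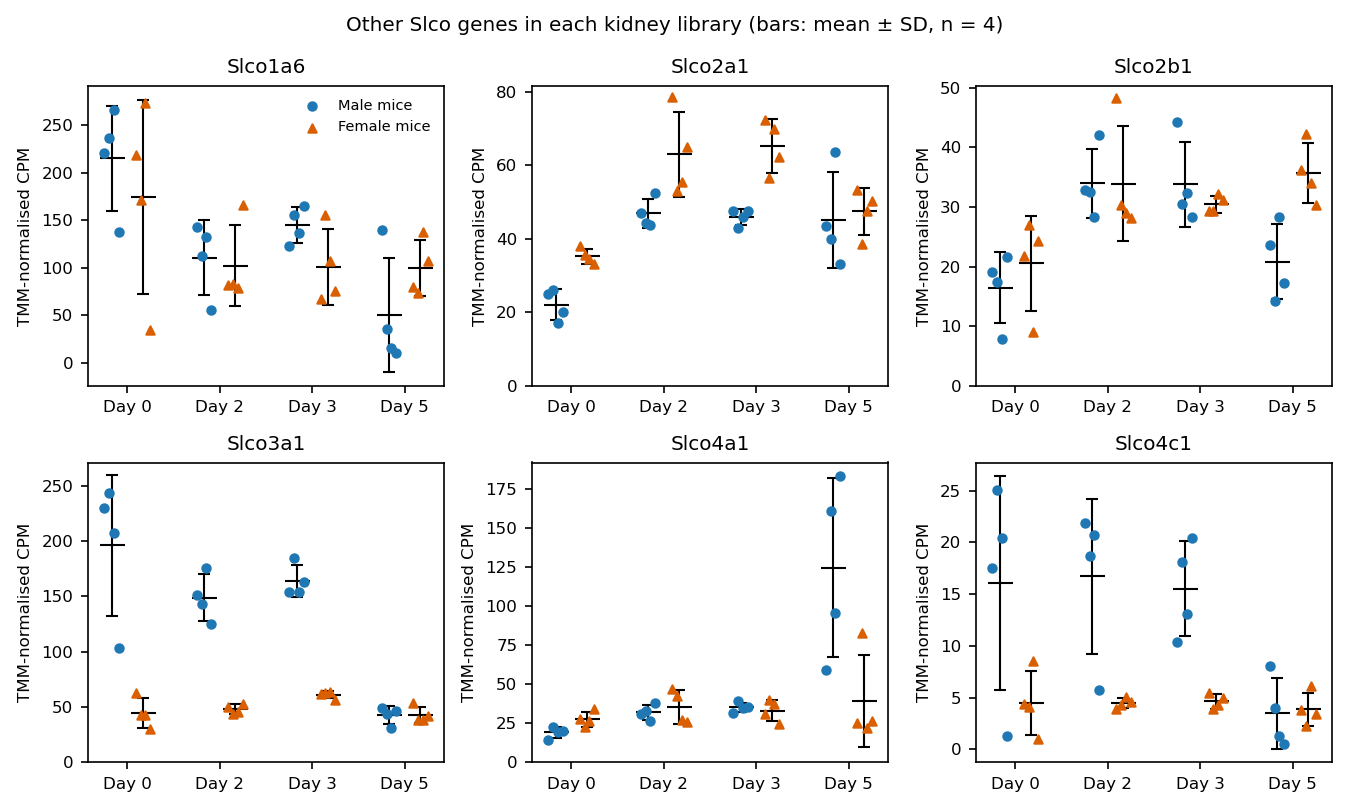
TMM-normalised CPM of the other 6 Slco genes in each library by day, males as circles and females as triangles, with bars for mean ± SD (n = 4). Slco3a1 and Slco4c1 lie higher in males at Day 2 and Day 3 (125 to 185 CPM against 43.9 to 63.7 CPM for Slco3a1), Slco2a1 lies higher after injection than at Day 0 in both sexes, and Slco4a1 reaches 59.3 to 183 CPM in Day 5 males.

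Among the Day 5 males, mouse 1, with a mitochondrial share of 42.5%, held the most Slco1a6 and Slco4c1 and the least Slco4a1 of the group. It is also the library whose Xist went against its label. The other 3 males had like shares, and Slco4a1 differed among them, with 161 CPM at 78.9%, 95.5 CPM at 79.8% and 183 CPM at 79.7%. Slco1a1 was at 5.43 CPM in the library at 79.7% and at 2.01 CPM in that at 42.5%. The 3 male Day 5 libraries above 78% mitochondrial counts had proximal tubule sums of 2790, 1407 and 1955 CPM and the lowest Slco1a6 values of their group, and the male library at 42.5% had a sum of 9630 CPM. Female Day 5 mouse 2, with 77.9%, had a sum of 5858 CPM, 73.3 CPM of Slco1a6 and the highest Slco4a1 of the females. Of the 17 proximal tubule markers, 8 were DEGs lower in males at Day 5 and none passed as higher (3.69% of all genes were DEGs lower and 8.98% passed as higher), with a median log2 fold change of -2.07 beside 0.04 for all genes. The part of tubule loss and of the mitochondrial share in the Slco values was not tested.

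**Figure D5:**
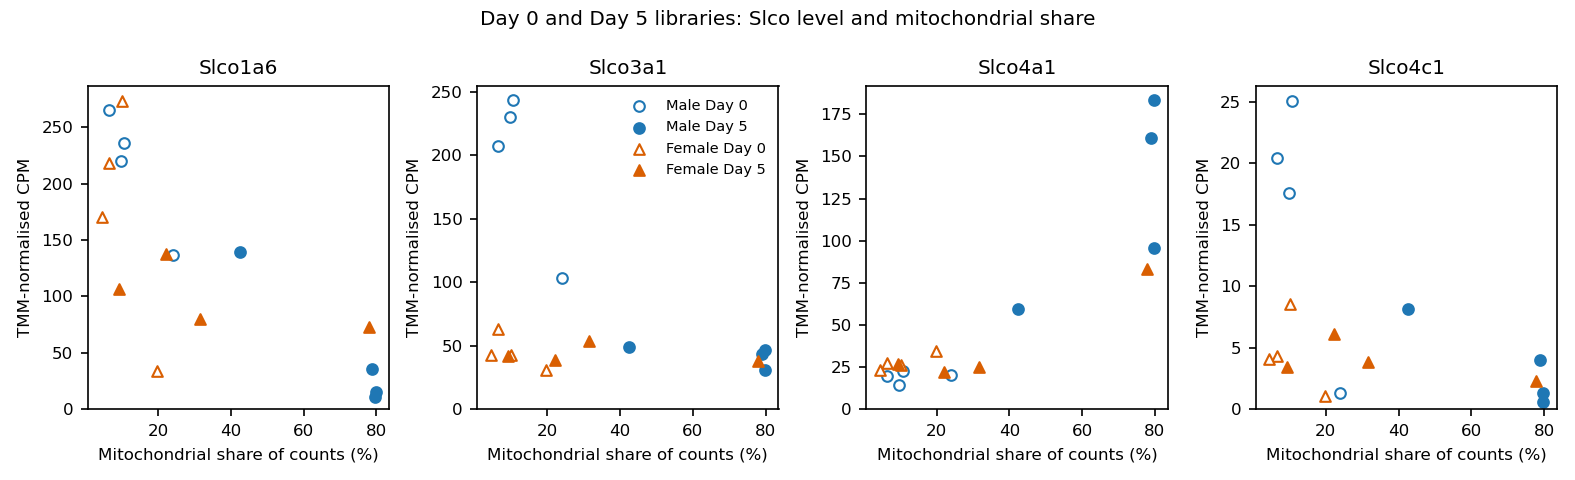
TMM-normalised CPM of Slco1a6, Slco3a1, Slco4a1 and Slco4c1 against the mitochondrial share of the counts (%) in the 16 libraries of Day 0 (open) and Day 5 (filled), males as circles and females as triangles. The libraries at 77.9% to 79.8% hold the 4 highest Slco4a1 values (83.1 to 183 CPM). Slco3a1 lies between 104 and 244 CPM in Day 0 males and between 30.8 and 49.1 CPM in Day 5 males. In females of both days it lies between 30.5 and 62.9 CPM, and only Day 5 mouse 2 of these is above 31.6%.

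Of the 10 other Slco genes with a row, Slco1a4, a carrier of bile acids and opioid peptides known from the liver and the blood-brain barrier, and Gm6614, a relative of Slco1a6 in the same cluster, had enough counts in males to be tested there at Day 2 and Day 3. Slco1a4 held 1.38 to 2.83 CPM in Day 0 males, 2.54 to 8.23 at Day 3 and 3.46 to 18.4 at Day 5, without overlap at Day 5. It rose 2.68-fold at Day 3 (log2 1.42, SE 0.39, adjusted p = 0.0328) and 5.51-fold at Day 5 (log2 2.46, SE 0.52, adjusted p = 0.0149), and was 3.69-fold higher in males than in females at Day 3 (adjusted p = 0.0148). In females Slco1a4 went the other way from Day 0, with log2 values of -2.02, -1.65 and -1.24 at Day 2, 3 and 5. None of these passed (adjusted p = 0.0753, 0.115 and 0.399). At Day 0 males against females gave -1.14 (adjusted p = 0.731), with 1.72 to 10.2 CPM in the females. Gm6614 held 0.402 to 1.80 CPM in Day 0 males and 2.77 to 7.86 CPM at Day 3, without overlap. The males held 7 to 36 counts at Day 0, 34 to 142 at Day 2 and 71 to 188 at Day 3, against at most 11 and 15 counts in a female at Day 2 and Day 3. The gene entered the fits of these days only through the males of Day 2 and Day 3, so these values are given without a test.

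The remaining relatives had few counts, and none of them entered a fit of 2 groups. The liver carrier Slco1b2 held 1189 counts in female Day 0 mouse 2 and 176 in female Day 3 mouse 2, libraries that also held 253608 and 11849 counts of Alb, and at most 33 counts in any other library. Slco1c1, the thyroxine carrier of the blood-brain barrier, held 10 to 25 counts in the Day 5 males (1.39 to 2.71 CPM) against 0 to 2 in the Day 0 males and 0 to 4 in the Day 5 females, without overlap, and at most 23 in any other library. Gm5724 held 35 counts in 1 Day 0 male. Slco5a1, Slco1a5, Slco6d1, Slco6b1 and Slco6c1 held at most 4, 5, 9, 1 and 0 counts in a library.

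Other genes that carry or process the same compounds were followed as lists. Of 15 other carriers of organic anions and bile acids, 8 were DEGs lower and 2 passed as higher in males at Day 5 (3.69% and 8.98% of all genes), with a median log2 fold change of -2.11 beside 0.04 for all genes. The leading ones were Slc22a30 (-5.07, SE 0.57, adjusted p = 0.00381), Slc17a3, a urate and phosphate carrier (-3.44, SE 0.59, adjusted p = 0.00967), and Slc22a6, the main organic anion exchanger of the proximal tubule (-3.12, SE 0.62, adjusted p = 0.0134). At Day 3 in males 1 passed as higher and 2 as lower (11.4% and 13.1% of all genes), among them Slc51a, a subunit of a basolateral steroid and bile acid carrier (-1.80, SE 0.28, adjusted p = 0.00750). None of the 15 passed in females at Day 2, 3 or 5, when 1.93%, 5.54% and 0.258% of all genes did, so a count of 0 lies near the share of all genes. Between the sexes Slc22a30 was higher in males by 4.65 (SE 0.47) at Day 2 and 5.15 (SE 0.37) at Day 3 on the log2 scale, whereas Abcc3, an export pump for glucuronides, was lower in males at Day 0, 2 and 3 (log2 -4.09, SE 0.70, then -4.41, SE 0.40, and -4.06, SE 0.18).

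Among 16 genes of prostaglandin synthesis and signalling, 7 of 15 tested passed as higher and 1 as lower in males at Day 5 (8.98% and 10.2% of all genes), when Slco2a1 was also higher. In the same comparison 3 of 8 collecting duct markers, 3 of 12 endothelial markers and 4 of 5 adrenal cortex markers passed as higher and none as lower, and their part in these values was not tested. Between the sexes at Day 5, however, 5 of 6 adrenal cortex markers were DEGs lower in males (0.0525% of all genes). The prostaglandin genes higher in males at Day 5 than at Day 0 included Pla2g4a, the phospholipase that frees arachidonic acid (1.57, SE 0.36, adjusted p = 0.0197), Ptgs2, the inducible cyclooxygenase (3.62, SE 0.96, adjusted p = 0.0306), and Cbr1, a carbonyl reductase of prostaglandins (1.97, SE 0.56, adjusted p = 0.0376). In males at Day 3, 1 of 15 passed as higher and 3 as lower (11.4% and 13.1% of all genes). At Day 2, 0 of the 15 passed in males (3.16% of all genes) or in females (1.93%), where so low a share of all genes leaves little to read from a count of 0. The same holds for females at Day 3, when Slco2a1 passed, with 0 of 16 (5.54% of all genes), and at Day 5 with 0 of 15 (0.258%). Cbr1 was lower in males than in females at Day 0, 2 and 3 (log2 -2.78, -2.54 and -2.34).

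Of 10 genes of thyroid hormone transport and action, 9 could be tested in males at Day 5, where 0 passed as higher and 2 as lower (8.98% and 10.2% of all genes). Dio1, the deiodinase that activates thyroxine, fell in females at Day 2 (log2 -1.84, SE 0.33, adjusted p = 0.0298) and at Day 5 (-2.39, SE 0.21, adjusted p = 0.00193), and was lower in males than in females at Day 0 (-2.28, SE 0.32). Slc7a5, an amino acid and thyroid hormone carrier, rose in females at Day 3 (1.76, SE 0.36, adjusted p = 0.0465). Of 13 genes of sex and growth hormone signalling, 12 could be tested in males at Day 5, where 0 passed as higher and 3 as lower, beside the same shares of all genes. They included Srd5a1 (-1.55, SE 0.30, adjusted p = 0.0128) and Srd5a2 (-2.53, SE 0.63, adjusted p = 0.0253), the steroid reductases that make dihydrotestosterone. Prlr, the prolactin receptor, was lower in males at Day 0, 2 and 3 (-4.26, SE 0.49, then -3.21, SE 0.39, and -2.55, SE 0.49), it fell in females at Day 5 (-1.72, SE 0.24, adjusted p = 0.0204), and Esr1, the oestrogen receptor, was higher in males at Day 3 (1.83, SE 0.27, adjusted p = 0.00275).

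The genes most like Slco1a1 over the 32 libraries, by Pearson correlation of log2 CPM among 15204 protein-coding genes, were Slc7a13 (r = 0.951), an amino acid carrier of the proximal tubule, Slc22a30 (0.939), Cyp7b1 (0.929), Cyp2j13 (0.926) and Ugt2b37 (0.922). Those most like the other members were Acadm (0.928) and Pex7 for Slco1a6, Plxnb1 (0.902) and P2ry2 for Slco2a1, Mxd4 (0.888) and Ppp6r2 for Slco2b1, Atp11a (0.967) and Ces1f for Slco3a1, Hspa1b (0.920) and Epn2 for Slco4a1, and Crot (0.901) and Mat2a for Slco4c1. Among the members themselves Slco1a1 and Slco3a1 were most alike (r = 0.837), followed by Slco3a1 and Slco4c1 (0.781), and Slco1a6 and Slco4a1 ran most opposite (-0.755). These libraries share sex, day and mitochondrial share, so the values describe the 32 libraries only. Within groups, after subtracting each group's mean, the correlation of Slco1a1 was 0.485 for Slc7a13, 0.521 for Slc22a30, 0.610 for Cyp7b1, 0.721 for Cyp2j13 and 0.771 for Ugt2b37.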

How the data were processed

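Kidney RNA was sequenced in 32 mice, 4 biological replicates for each of 8 groups. The authors deposited whole-number read counts per gene, made with HTSeq per the submitters' processing notes, and FPKM, which divide the counts by gene length and library size. Those notes name GRCm39 and mm39, whereas the deposited coordinates match GRCm38. The aligner and strand setting are not given in the sources used here. The tests of counts used TMM normalisation, filterByExpr, glmQLFit and glmQLFTest of edgeR 4.0.16 under R 4.3.3, with 1 fit per pair of groups and a 4-group fit for each interaction. DESeq2 1.42.0 was an alternative, with other normalisations and filters, a replicate block, 1 fit over all groups and each mouse left out. Counting intervals of ratios are exact binomial ones. The scripts were tested on simulated data. The genes named are all members, every other listed Slco gene with a row, up to 3 DEGs per list and comparison with the smallest adjusted p, and for likeness the 5 genes nearest to Slco1a1 and the 2 nearest to each other member. Members and lists were chosen with earlier results of these data known. The replicate numbers were checked for pairing, and in no comparison did every same-numbered pair of mice correlate over 0.1.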

Additional observations from a re-analysis of the deposited data

Results flagged for a closer look

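In 55 sets of 4 mice (1 gene in 1 group), 3 had a mouse far from the other 3 by Dixon's test at the 95% level, and chance flags about 5% of such sets. Slco1a6 reached 166 CPM in female Day 2 mouse 4 against 78.3 to 82.3 CPM in the other mice of that group. Slco2b1 reached 48.3 CPM in female Day 2 mouse 1 against 28.1 to 30.3 CPM. Slco4a1 reached 83.1 CPM in female Day 5 mouse 2, a library with 77.9% mitochondrial counts, against 22.0 to 26.5 CPM.

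The change of Slco3a1 from Day 0 to Day 5 differed between males and females in the interaction test of edgeR (log2 -2.09, adjusted p = 0.0330), with a fall in males (-2.14) and a value of -0.06 in females.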

How the results depend on the processing

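Slco1a1 is left out of the counts of DEGs here, as it was above. The number of other Slco DEGs within a sex was 2. It became 6 with an absolute log2 fold change over 1 and 8 with no fold threshold. DESeq2 gave 4, 1 fit over all 8 groups gave 4 and the replicate block gave 4. For the interaction the number was 1, and it became 2 with DESeq2, 2 with 1 fit and 2 with the block. It was 3 without male Day 5 mouse 1 and female Day 5 mouse 2, an alternative chosen after seeing the data. Leaving out each mouse in turn gave 2 to 3 within a sex, 3 to 6 between the sexes and 0 to 2 for the interaction. Slco4a1 in females at Day 5 ranged from -0.19 to 0.71 on the log2 scale, being -0.19 without female Day 5 mouse 2, alone or with male Day 5 mouse 1. Of 51 single values followed, DESeq2 size factors and leaving out mitochondrial genes changed no call. DESeq2's Wald test lost 0 calls and gained 14. These gains include Slco1a1 in males at Day 2, between the sexes at Day 0 and in the interaction at Day 2 and Day 3. Leaving out both Day 0 mice numbered 4, chosen after seeing the data, lost 0 and gained 9. With 1 fit over all 8 groups 5 calls were lost and 8 gained, and with the replicate block 7 were lost and 3 gained. Slco1a1 in males at Day 3 is among the losses of both, and between the sexes at Day 0 among the gains of the 1 fit. Nothing is read from these changes of Slco1a1. In 0 of 10 comparisons did every same-numbered pair correlate over 0.1 (range -0.404 to 0.473, with 3 of 4 pairs over 0.1 between the sexes at Day 0), so the block is no test of a weaker effect. The cause of these changes was not tested. The high mitochondrial shares left fewer counts for other genes at Day 5, where 3 counts were worth up to 0.479 CPM.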
